A study of Mus musculus with 6 samples.

Results

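Interstitial fibroblasts low in activation markers were taken from 6 single-cell libraries of mouse heart non-cardiomyocytes, and they numbered 758 of 30014 cells kept. A cell was kept with at least 1000 unique molecular identifiers (UMIs, each a counted transcript), at least 200 genes and at most 20% mitochondrial UMIs. A kept cell belonged to the class when it held at least 10 UMIs of Col1a1, Col1a2, Col3a1 and Dcn together and at least 1 UMI of Pdgfra, Lum or Dpt. It also had to hold fewer than 5 UMIs of the activation genes Postn, Cthrc1 and Tnc, and at most 1 UMI of Pi16. At most 1 UMI was allowed in each of 3 sets of other-cell genes, which were Cdh5 with Csf1r and Ptprc, Msln with Upk3b, and Myh11 with Kcnj8. The cells were thus chosen by the measured counts of these 18 genes, so the levels of those genes, and any difference from cells left out by them, are descriptions.

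The study compared male wild-type mice (WT, strain C57BL/6JRj) with male Trpm4 knockout mice (KO, strain B6.Cg-Trpm4tm1.2-PG), both 8 to 12 weeks old. Trpm4 encodes a calcium-activated cation channel. Hearts were taken 24 h after a sham operation, 24 h after the left anterior descending artery had been ligated, which causes an infarct, or 72 h after that ligation. No sham library was made at 72 h. Ventricles were digested with thermolysin and papain, cardiomyocytes were removed with meshes, and Calcein-AM with DAPI staining served to sort the living cells. The cells of 4 mice were pooled into each library and there was 1 library for each of the 6 groups, so there are no replicates, no comparison below carries a test, and every interval covers counting error only.

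Resident cardiac fibroblasts lie between the muscle fibres, keep the collagen network of the ventricle and secrete proteoglycans, complement proteins and growth factors. After an infarct, part of them switch to an activated state marked by periostin (Postn) and Cthrc1, and later by smooth muscle actin (Acta2), in which they lay down scar matrix. Tcf21 is a transcription factor of the resident state, and the actin-severing protein gelsolin (Gsn) and the small proteoglycan decorin (Dcn) are among the most abundant products of resident cells.

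The class made up 3.06% of kept cells in the WT sham library (163 of 5328, 95% Clopper-Pearson interval 2.61 to 3.56%) and 3.19% in the KO sham library (186 of 5827, 2.76 to 3.68%). At 24 h of ligation the shares were 2.19% in WT (70 of 3201, 1.71 to 2.75%) and 1.31% in KO (88 of 6734, 1.05 to 1.61%). At 72 h they were 0.749% in WT (33 of 4406, 0.516 to 1.05%) and 4.83% in KO (218 of 4518, 4.22 to 5.49%). The KO library at 72 h held the highest share under this rule and the WT library at 72 h the lowest, while the intervals of both sham libraries overlapped. The order depends on the limits: gated after thinning to 1000 UMIs, the sham libraries were highest at 5.48% and 5.37% (WT, KO) against 3.83% at KO 72 h. Among cells with at least 2000 UMIs the KO library at 72 h stood at 2.71%, below both sham libraries. Among all fibroblasts that passed the collagen and other-cell limits, the class took 44.9% and 42.3% at sham (WT, KO), 40.7% and 48.4% at 24 h, and 28.0% and 68.3% at 72 h. The activated cells, with 5 or more activation UMIs, took 9.64% and 11.6% at sham, 15.7% and 20.3% at 24 h, and 54.2% and 25.7% at 72 h. Shares of this kind depend on the digestion, the sort and the number of leukocytes in the library, and a fixed UMI limit depends on depth. No cell barcode of the class was shared by any of the 15 pairs of libraries.

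Depth set the KO library at 72 h apart before any gene was compared. The median UMI count per cell of the class was 7496 and 7213.5 at sham (WT, KO), 7832.5 and 7464 at 24 h, and 6403 and 1639 at 72 h. In the KO library at 72 h, 151 of the 218 cells had fewer than 2000 UMIs. Activated cells were deeper than the class in each library, from 10764 at KO sham to 39450.5 at WT 72 h, and stood at 2808.5 in the KO library at 72 h. Just inside the activation limit, with 3 or 4 UMIs, lay 45 cells of the KO library at 72 h against 4 to 13 cells in the other libraries. Just outside it, with 5 or 6 UMIs, lay 26 and 3 to 12 cells. The summed collagen and Dcn count also lay near its limit there, at 10 to 14 UMIs in 56 of the 218 cells against 0 to 4 cells in the other libraries, and a further 54 cells lay just outside it at 5 to 9 UMIs, against 1 to 4.

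**Figure D1:**
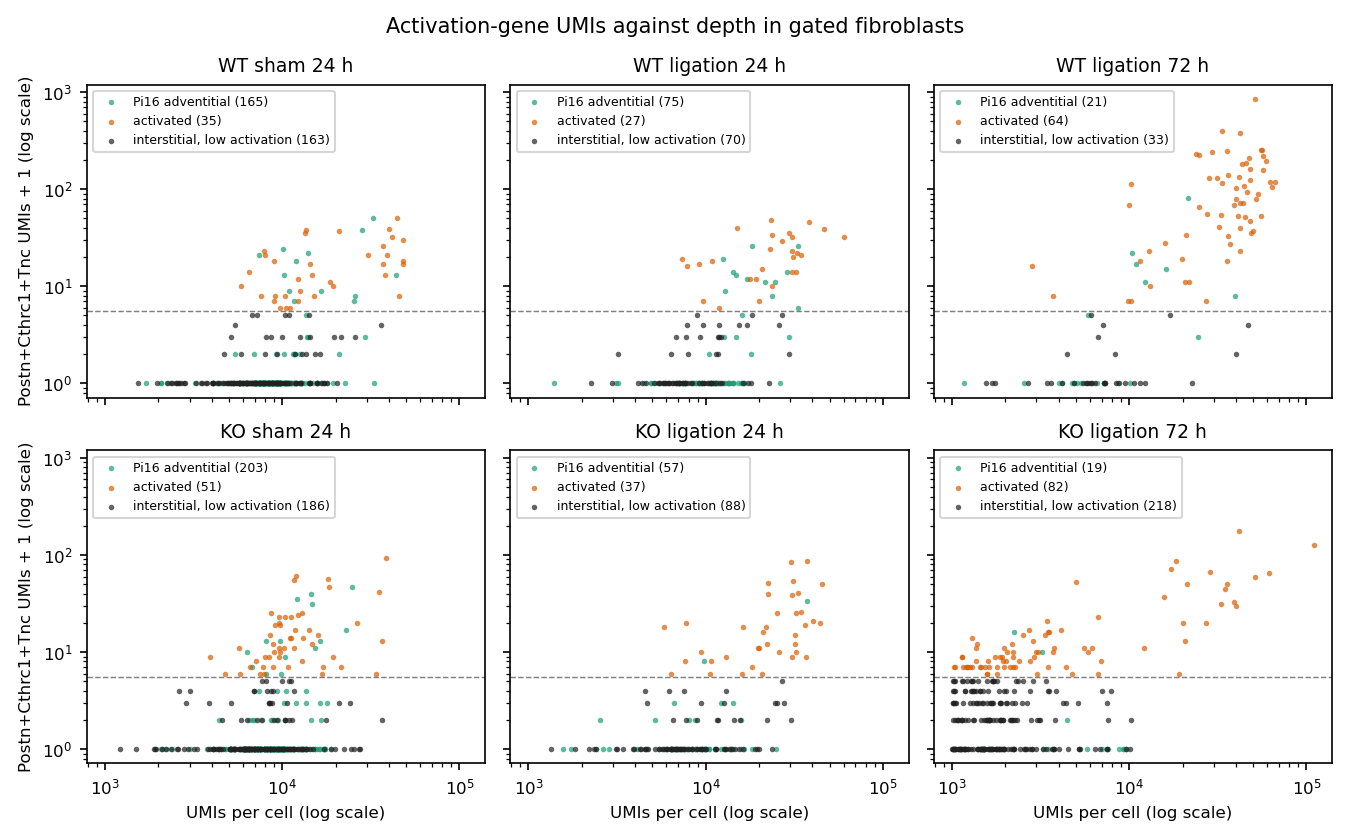
Each point is a fibroblast of 1 library, with its total UMIs on the horizontal axis and its summed Postn, Cthrc1 and Tnc UMIs plus 1 on the vertical axis, both logarithmic. The dashed line is the limit of 5 UMIs. In the KO library at 72 h most cells of the class lie below 2000 UMIs and spread up to the limit, while in the other libraries most hold no activation UMI.

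Of the 5 markers given for the class, Pdgfra, Dcn and Lum are genes of the rule, so only Tcf21 and Gsn can check the label. Both were higher in the class than in the other kept cells of every library. Levels below are CPM, that is the UMIs of a gene summed over the cells of the class per 1000000 UMIs of all genes in those cells. Tcf21 stood at 193.9 and 142 CPM at sham (WT, KO), 121 and 135 at 24 h, and 189 and 65.6 at 72 h. Gsn stood at 16613 and 17757 CPM at sham, 13708 and 11538 at 24 h, and 12236 and 5961 at 72 h. Both were lowest in the KO library at 72 h. After thinning each cell to 1000 UMIs, Tcf21 was detected in 13.6 to 30.3% of the cells of the other 5 libraries and in 3.67% of those of the KO library at 72 h. In endothelial cells thinned the same way, which should lack it, it was detected in 0% in every library, and the median depth of those cells before thinning was 2471 to 4367 UMIs.

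The activation genes are held down by the rule, so their levels are a description. Postn, Cthrc1 and Tnc together stood at 38.6 and 49.9 CPM at sham (WT, KO), 70.7 and 43.7 at 24 h, and 61.8 at WT 72 h, but at 553 CPM (488 to 624) in the KO library at 72 h. Postn alone was detected in 26.6% of the thinned cells of that library, against 3.03 to 4.29% in the other 5. Members of the KO library at 72 h are therefore called here by the rule and not as cells low in activation. The limit is a raw count, so a cell with fewer UMIs passes it at a higher relative level.

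Leukocyte transcripts moved with the same library. The share of a cell's UMIs that came from 8 monocyte and macrophage markers and 6 neutrophil markers had a median of 0.0094% and 0% at sham (WT, KO), 0.0121% and 0.039% at 24 h, and 0% at WT 72 h, but 0.894% in the KO library at 72 h. Endothelial cells of that library had a median of 0.0791%, and its activated fibroblasts 0.328%. Summed over the class, the 8 monocyte and macrophage markers reached 6833 CPM there, with none at 0, against 42.8 to 198 CPM in the other libraries. Lyz2, the macrophage lysozyme, stood at 41.5 and 29.2 CPM at sham, 29.4 and 106 at 24 h, 26.0 at WT 72 h and 4735 at KO 72 h. Neutrophil markers were higher in both KO ligation libraries, at 2114 CPM at 24 h and 2084 at 72 h, against 13.0 to 425 elsewhere. At 24 h single cells held much of this: 45.7% of the S100a9 and 43.9% of the S100a8 UMIs in KO, and 89.9% and 47.8% in WT, were in 1 cell. The part of these transcripts in the results was not tested, but the cells can be split by them. In the KO library at 72 h, 32 of the 218 cells held at most 0.1% leukocyte marker UMIs. In those 32 cells Gsn stood at 12985 CPM, Tcf21 at 179, Dcn at 19056 and the activation genes at 213. In the other 186 cells Gsn stood at 3639.7 CPM, Tcf21 at 28.2, Dcn at 3882 and the activation genes at 665. With this limit the class took 0.708% of kept cells in the KO library and 0.749% in the WT library at 72 h.

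**Figure D2:**
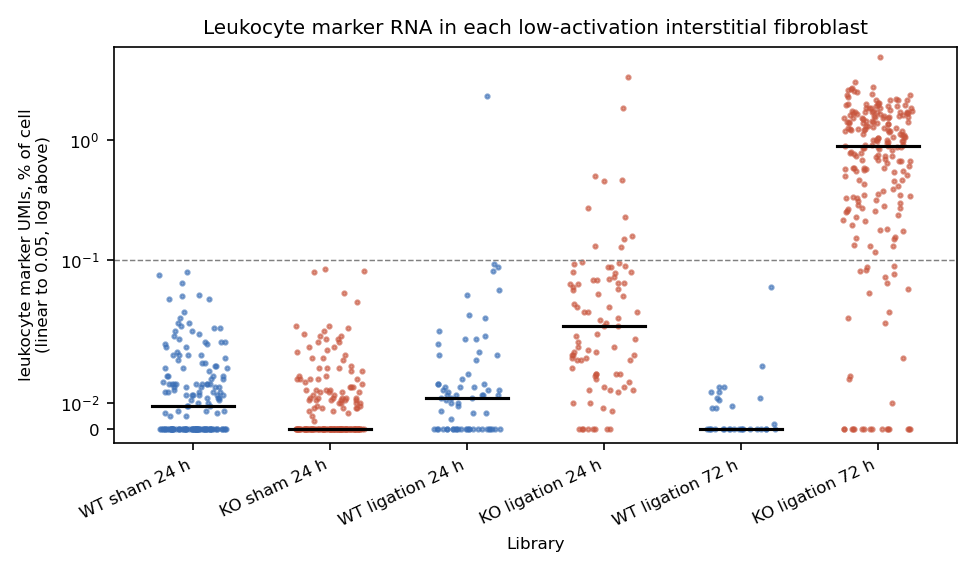
Each point is 1 cell of the class, plotted by library with the percentage of its UMIs from 14 monocyte, macrophage and neutrophil markers on an axis that is linear to 0.05% and logarithmic above. Black bars are medians and the dashed line marks 0.1%; most cells of the KO library at 72 h lie above it, with a median of 0.894%.

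Markers of most other cell types summed to less in the class than in the other kept cells. Mesothelial markers were an exception at 72 h. In WT they stood at 52.1 CPM against 14.6 in other cells, with 3 of 6 genes higher and 3 at 0. In KO they stood at 114 CPM against 46.96, with 6 of 6 genes higher. The mesothelial keratin Krt19 was found in 20 cells of the KO library. Schwann cell markers summed to at most 31.3 CPM but were above the other cells in each library. This rested on 1 of the 5 genes, which was higher than in the other cells, while 3 or 4 of the 5 were at 0. The part of mesothelial and Schwann cell markers in the results was not tested. Endothelial markers summed to 370.3 to 870.1 CPM and lymphocyte markers to at most 31.8 CPM, with all 6 at 0 in 3 libraries. Globin transcripts gave 6173 CPM to the erythroid list in the WT sham library, and 99.7% of the UMIs of Hbb-bs there came from 1 cell. Trpm4 itself was near the limit of detection: the class held 13 and 6 UMIs at sham (9.48 and 3.89 CPM, WT and KO), 0 and 2 at 24 h, and 3 and 1 at 72 h. The count of 0 allows up to 4.42 CPM. Over whole libraries Trpm4 stood at 8.79, 5.52 and 4.29 CPM in WT and 6.20, 3.46 and 2.57 in KO (sham, 24 h, 72 h). KO libraries were lower at each time but not at 0, and since reads come from the 3′ end of transcripts and the sources used here do not give the deleted part, these counts do not check the labels.

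The most abundant transcripts of the class at sham mixed general and matrix genes. After Malat1 and the ribosomal repeat Gm42418, Gsn and Dcn led both lists, followed by matrix Gla protein (Mgp, 6457 CPM in WT and 9145 in KO), ferritin Fth1 and the lipid carrier Apoe (6002 and 6778 CPM). Col3a1, a fibrillar collagen, stood at 3279 CPM in WT and 2053 in KO. In cells thinned to 1000 UMIs the WT sham cells had a median of 18 Gsn UMIs and 4 Apoe UMIs, with 9 to 27.5 Gsn UMIs over the middle of the distribution. The variance-to-mean ratio over thinned WT sham cells had a median of 1.26 over 165 genes. It was 306 for Hbb-bs, owing to its 1 cell, 11.1 for Gsn and 9.47 for Apoe. Secreted genes of fewer cells also varied: the ratio stood at 7.36 for Prg4 (lubricin), detected in 21.5% of thinned cells, and 6.86 for Cxcl14, a chemokine detected in 13.5%. In the KO sham cells the largest ratio was 35.1, for the monocyte attractant Ccl2, with a UMI in 8.06% of thinned cells. Saa3, an acute phase protein, led in the KO library at 72 h with 39.3 and a UMI in 17.0% of cells.

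Ligation for 24 h was compared with sham in each genotype. A gene was measured with at least 50 UMIs over both libraries, and past 2-fold means a CPM ratio of at least 2 either way; the genes of the rule were left out. In WT, 538 of 5759 measured genes were past 2-fold (9.34%), with 327 higher at 24 h (5.68%) and 211 lower (3.66%), but 128 higher and 136 lower in cells with 0 activation UMIs. In KO, 441 of 6166 were past 2-fold (7.15%), with 186 higher (3.02%) and 255 lower (4.14%). The split in KO depends on the scaling, since median-of-ratios scaling moved the median log2 ratio of all genes from -0.09 to 0.02 and gave 248 higher and 195 lower. Each genotype has its own sham library, but the genotype comparisons further down reuse the same libraries, so their values stand side by side and are not independent.

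Timp1, the tissue inhibitor of metalloproteinases, was at 374 and 1138 CPM in WT and 513 and 1457 in KO, log2 ratios of 1.61 and 1.51. Its top cell at 24 h held 23.7% of its UMIs in WT and 30.2% in KO, and it was detected in 21.4% and 23.9% of thinned cells. Metallothionein Mt2, which binds zinc and copper, stood at 320.0 and 2072 CPM in WT (log2 2.70) and 674 and 2453 in KO (1.86), and Mt1 showed log2 ratios of 1.94 and 1.78. Of 17 measured antioxidant and metallothionein genes 4 were past 2-fold higher in WT and 6 in KO, none lower. Heme oxygenase Hmox1 was among them in both, with log2 ratios of 1.85 and 3.50.

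**Figure D3:**
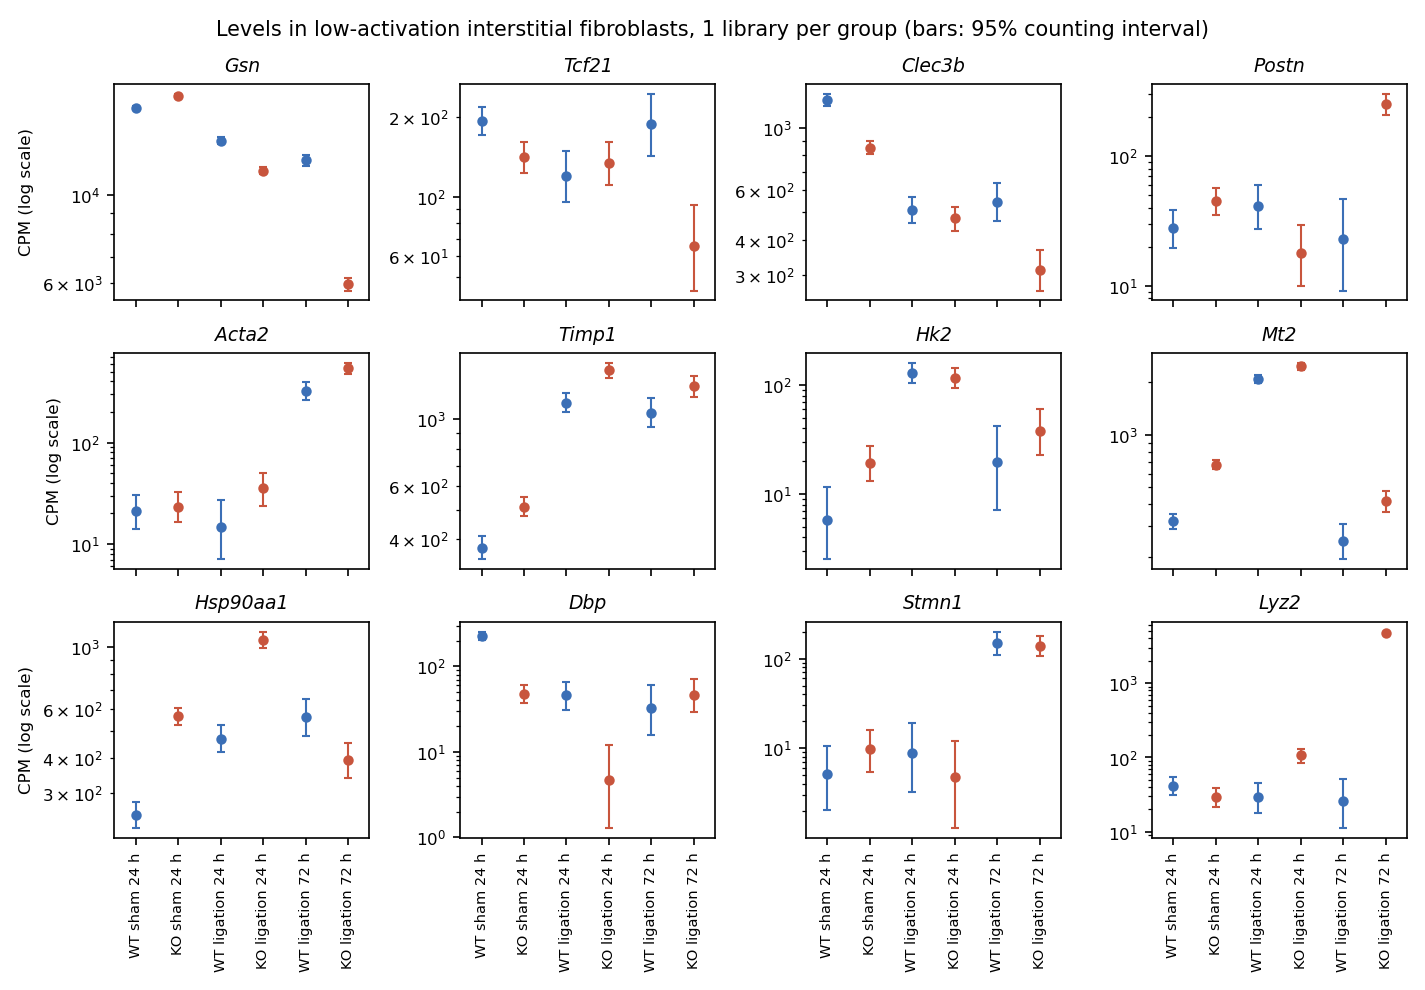
Level of 12 genes in the class, as CPM on a logarithmic axis, by library; blue points are WT, red points KO, and bars are 95% counting intervals. Hk2, Mt2 and Timp1 lie above sham in both 24 h ligation libraries, Dbp is highest at WT sham, and Lyz2 is high only in the KO library at 72 h, where Gsn, Tcf21 and Clec3b are lowest.

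Immediate early genes, many of them transcription factors, are switched on first by stress and by tissue dissociation alike, and they were higher at 24 h as a list. In WT, 9 of 19 measured genes were past 2-fold higher with a median log2 ratio of 0.97, and in KO 7 of 19 with a median of 0.76, against -0.01 and -0.09 over all genes. Myc stood at 10.9 and 79.5 CPM in WT and 11.7 and 56.7 in KO. Ier3 showed log2 ratios of 2.28 and 1.93, and Junb 1.17 and 0.89. Hexokinase Hk2, the first step of glycolysis, stood at 5.83 and 129.5 CPM in WT and 19.5 and 117 in KO. In the other kept cells Hk2 was also higher at 24 h, at 52.5 and 217 CPM in WT and 66.0 and 184 in KO. The top cell of the class at 24 h held 25% and 13.1% of its UMIs (WT, KO). The rest of the glycolysis and hypoxia list differed in its counts: 2 of 17 measured genes were past 2-fold in WT (Hk2 and Pgk1, log2 4.47 and 1.05) and 9 of 19 in KO, with list medians of 0.28 and 0.84. In KO the glucose transporter Slc2a1 (7.13 and 49.6 CPM), the lactate exporter Slc16a3 (log2 2.30), enolase Eno1 (1.33) and lactate dehydrogenase Ldha (1.04) were among the 9. The difference between these medians was not tested.

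Several collagens and resident fibroblast genes stood lower at 24 h. In WT, 5 of 12 measured network and fibrillar collagens outside the rule were past 2-fold lower and none higher, with a median log2 ratio of -0.89; in KO 2 of 12 were lower, with a median of -0.35. Col15a1, a basement membrane collagen, stood at 572 and 221 CPM in WT and 503 and 287 in KO. Col6a1 stood at 765 and 339 CPM in WT and 573 and 415 in KO. Osteoglycin (Ogn), a small leucine-rich proteoglycan, was at 1111 and 437 CPM in WT (log2 -1.35) and 672 and 331 in KO (-1.02), and asporin (Aspn) showed log2 ratios of -1.53 and -1.68. Of 20 resident fibroblast genes, 4 were past 2-fold lower and 1 higher in WT, with a median of -0.41, and 2 were lower in KO, with a median of -0.52. Clec3b (tetranectin), a gene of this list, stood at 1259.6 and 511 CPM in WT and 852 and 476 in KO. These resident medians were -0.03 and -0.0085 when the gene limits were applied to cells thinned to 1000 UMIs.

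Some differences at 24 h came mainly from a few cells. Prg4 reached 4052 CPM in WT at 24 h against 714 at sham, but 68.5% of its UMIs were in 1 cell, and Il6 had 95.3% of its 63.3 CPM in 1 cell. The neutrophil attractant Cxcl1 was spread wider at 24 h, with 27.3% and 21.7% in the top cell (WT, KO). At sham its top cell held 57.1% and 55%. Cxcl1 stood at 86.7 and 356 CPM in WT and 51.9 and 315 in KO. Cxcl5, another neutrophil attractant, was at 348 and 1147 CPM in WT and 543 and 451 in KO. Its top cell held 43.5% and 38.4% of the UMIs in WT (sham, 24 h) and 19.2% and 26.7% in KO. Over the 12 measured cytokines and chemokines, 5 were past 2-fold higher and 1 lower in WT, and 2 higher and 3 lower in KO. Gdf15, a stress cytokine, was at 2.19 and 20.6 CPM in WT, and at 1.95 and 118 in KO, a log2 ratio of 5.92 (4.34 to 8.23). Igfbp5, a binding protein of insulin-like growth factors, stood lower in KO at 24 h, at 268 and 39.0 CPM, and at 200.5 and 147 in WT.

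Between 24 and 72 h of ligation the comparison rests on 33 WT cells and on the KO library that stood apart. In WT, 363 of 3256 measured genes were past 2-fold (11.1%), with 99 higher at 72 h (3.04%) and 264 lower (8.11%). In KO, 611 of 3819 were past 2-fold (16%), with 189 higher (4.95%) and 422 lower (11.1%), or 274 and 258 under median-of-ratios scaling, which moved the median of all genes from -0.22 to -0.01. In the KO library 150 of the 189 genes that were higher at 72 h stood at least as high in the other kept cells of that library.

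Some contractile and cell cycle genes were higher at 72 h in both genotypes. Acta2 stood at 14.7 CPM at 24 h and 325 at 72 h in WT, a log2 ratio of 4.47 (3.53 to 5.57), and at 35.4 and 538 in KO, a ratio of 3.92 (3.37 to 4.52). In the 32 KO cells with few leukocyte transcripts Acta2 was at 579.8 CPM. Its detection in thinned cells was 12.1% in WT and 31.7% in KO at 72 h, against 1.08 to 3.41% in the earlier libraries, and 37.0% of the WT UMIs were in 1 cell. Tropomyosin Tpm2 showed log2 ratios of 2.14, with 37.5% of its WT UMIs at 72 h in 1 cell, and 1.13. Of 17 measured contractile genes 4 were past 2-fold higher in WT and 6 in KO, none lower. The KO median of this list was 0.62, but -0.0389 in cells with 0 activation UMIs. Stathmin (Stmn1), which is high in dividing cells, stood at 8.83 and 149.6 CPM in WT and 4.72 and 139.8 in KO, and the histone variant H2afz showed log2 ratios of 1.73 and 1.68. At WT 72 h 1 cell held 32.6% of the Stmn1 and 33.2% of the H2afz UMIs. The other kept cells at 72 h also held Stmn1, at 188 CPM in WT and 143.85 in KO. Of 5 measured cell cycle genes, 3 were past 2-fold higher in each genotype. Fibronectin (Fn1), a matrix glycoprotein of early scar, was at 44.2 and 296 CPM in WT, with 37.4% in 1 cell, and at 92.1 and 1169 in KO.

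Lists that stood above sham at 24 h are given at 72 h against 24 h, beside the shares over all genes. Over all measured genes 3.04% were higher and 8.11% lower in WT, and 4.95% and 11.1% in KO. Counts of 1 or 2 genes of a list beside these shares are descriptions. Immediate early genes had 1 of 18 measured genes past 2-fold higher and 2 lower in WT (median -0.22), and 5 of 20 higher and 2 lower in KO (median 0.00). Glycolysis and hypoxia genes had 1 of 11 higher and 1 lower in WT (median 0.63), and 4 of 17 lower in KO (median -0.03). At WT 72 h the top cell held 23.1% of the Tpi1 and 46.8% of the Pgk1 UMIs. The shares of Gapdh, Aldoa, Gpi1, Eno1, Ldha, Pkm and Pgam1 lay between these. Of the antioxidant and metallothionein genes, 2 of 14 were lower in WT, and 6 of 15 lower and 1 higher in KO. Mt2 went from 2072 to 247 CPM in WT and from 2453 to 417 in KO, below the sham levels of 320.0 and 674. Vegfa, the endothelial growth factor, was at 134 and 45.5 CPM in WT and 125 and 8.47 in KO. The KO value at 72 h is 4 UMIs in 3 cells, and 46.2% of the KO UMIs at 24 h were in 1 cell. Hyou1, a chaperone of the endoplasmic reticulum, was at 116 and 13.0 CPM in WT and 151 and 29.6 in KO. Its WT value at 72 h is 4 UMIs in 2 cells. Of the secretory and endoplasmic reticulum stress genes, 5 of 18 were past 2-fold lower in WT and 9 of 19 in KO. Of the heat shock chaperones, 1 of 9 was lower in WT and 10 of 14 in KO, with medians of 0.16 and -1.30. The collagens of the rule stood higher in WT at 72 h, with Col1a1 at 974 and 2579.8 CPM, and so did Col15a1, at 221 and 508 CPM.

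**Figure D4:**
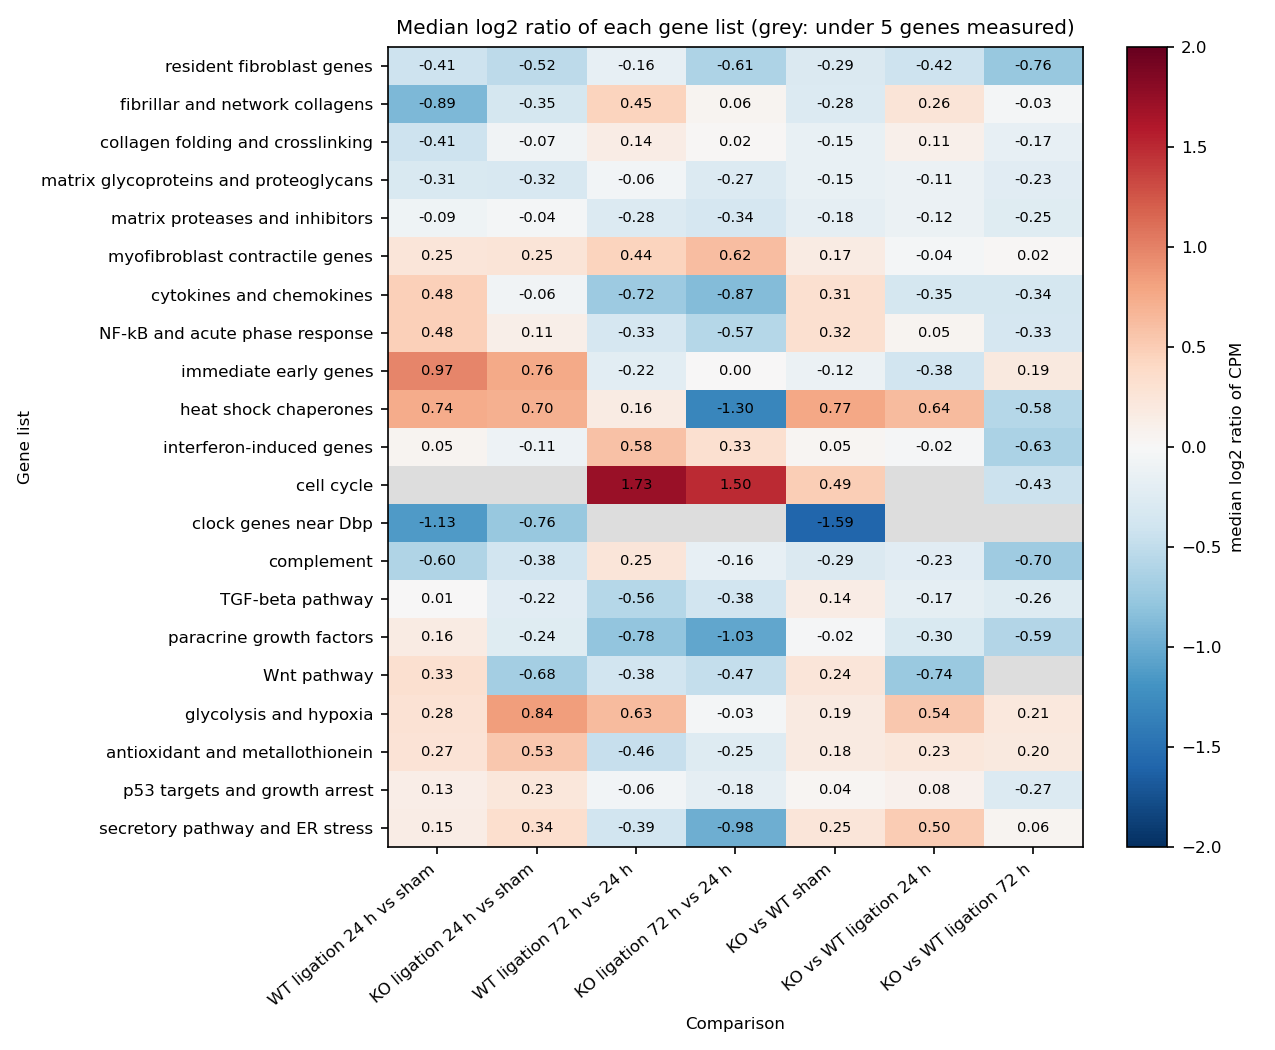
Median log2 ratio of CPM over the measured genes of each list (rows) in each of the 7 comparisons (columns), red for higher and blue for lower; grey cells had fewer than 5 genes measured. The strongest blue cell of the genotype columns is the clock list at sham (-1.59), and heat shock chaperones are red in the KO to WT columns at sham (0.77) and 24 h (0.64).

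KO and WT were compared at sham, where depth and leukocyte content of the class were alike. Of 6953 measured genes 180 were past 2-fold (2.59%), with 118 higher in KO (1.7%) and 62 lower (0.892%), the lowest overall share of the 7 comparisons. The lower genes included the output arm of the circadian clock. Dbp, a clock-driven transcription factor, stood at 227 CPM in WT and 48.0 in KO, a log2 ratio of -2.24 (-2.63 to -1.88), and was detected in 17.8% and 5.91% of thinned cells. Per3, a period gene, stood at 105 and 25.3 CPM, Nr1d1 (Rev-erb alpha) at 198 and 53.8, Hlf at 137 and 46.0 and Tef at 83.8 and 27.9. Of 8 measured genes of this list 7 were past 2-fold lower and none higher, with a median of -1.59, and Per1 stood at 19.7 and 16.2 CPM. The list was also lower in WT at 24 h of ligation than at WT sham, with 5 of 8 measured genes past 2-fold lower and 1 higher (median -1.13), and Dbp at 45.6 CPM there; the WT sham library is part of both comparisons and held the highest Dbp level of all 6. Arntl, which peaks in the opposite phase to Dbp, was higher in KO, at 16.8 and 44.7 CPM. Endothelial cells of the same libraries showed the same order, with Dbp in 29.2% of thinned WT and 5.27% of thinned KO cells. The labels give no hour of collection, so a difference in clock phase between the pools and the genotype cannot be told apart.

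Promoter sequences are shown for 3 of these clock genes because their levels stood lower together. They are the 250 bases before the RefSeq start of each gene (build GRCm38.p6), 5′ to 3′ on the gene's strand, with matches to the E-box CACGTG or the D-box (TTATGTAA or TTATGCAA, either strand) in capitals. Per3 lies at chr4:151044666-151044915 on the minus strand, Tef at chr15:81811164-81811413 on the plus strand (the second of 2 RefSeq starts) and Dbp at chr7:45704997-45705246 on the plus strand.
Per3: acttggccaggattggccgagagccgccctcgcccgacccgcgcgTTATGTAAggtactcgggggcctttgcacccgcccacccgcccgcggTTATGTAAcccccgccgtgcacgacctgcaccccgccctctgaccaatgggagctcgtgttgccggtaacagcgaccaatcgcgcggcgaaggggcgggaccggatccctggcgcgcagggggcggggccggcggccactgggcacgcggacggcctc
Tef: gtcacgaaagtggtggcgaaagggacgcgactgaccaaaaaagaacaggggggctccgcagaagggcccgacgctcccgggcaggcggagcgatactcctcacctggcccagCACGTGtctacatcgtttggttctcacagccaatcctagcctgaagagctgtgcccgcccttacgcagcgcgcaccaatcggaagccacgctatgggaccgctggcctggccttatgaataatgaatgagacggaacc
Dbp: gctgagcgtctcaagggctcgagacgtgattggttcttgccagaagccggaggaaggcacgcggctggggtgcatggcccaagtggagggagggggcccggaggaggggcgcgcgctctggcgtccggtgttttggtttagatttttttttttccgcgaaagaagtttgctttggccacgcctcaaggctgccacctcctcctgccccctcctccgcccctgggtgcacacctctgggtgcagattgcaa
Per3 held 2 D-boxes, 205 and 158 bases before its start. Tef held 1 E-box, 138 bases before this start. Dbp held neither motif in this window. Promoters of 9 of the 10 genes of the list were found, with 11 starts; 5 of the 11 held an E-box and 2 a D-box, against 6.02% and 1.5% of 32851 promoters of the same length. A match describes the letters and not a bound site.

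Heat shock chaperones stood higher in KO at sham. Of 14 measured genes 5 were past 2-fold higher and none lower, with a median log2 ratio of 0.77, against 0.00 over all genes. Hsp90aa1, an inducible form of the folding chaperone HSP90, stood at 251 CPM in WT and 564 in KO, and Hspa8, a constitutive HSP70, at 520.5 and 1127. They were detected in 17.8% and 37.1%, and in 44.8% and 61.8%, of thinned cells. Hsph1 stood at 26.2 and 79.1 CPM. Hspa1a stood at 20.4 and 75.2 CPM, and since Hspa1a and Hspa1b are near-identical copies their reads may be split between them. Endothelial cells of the KO sham library also held more Hsp90aa1, in 18.0% against 9.99% of thinned cells.

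A few secreted genes differed at sham with the number of cells behind them varying. Comp, a matrix protein of tendon-like cells, stood at 11.7 CPM in WT and 115 in KO, a log2 ratio of 3.31 (2.57 to 4.14), with 19.1% of the KO UMIs in 1 cell. The related matrix genes Fmod and Cilp stood at 1.46 CPM in WT and at 49.9 and 35.0 in KO, with 32.5% and 70.4% in 1 cell. Ccl2 stood at 177 and 846 CPM, but single cells held 74.1% and 54.1% of its UMIs. The cytokine Tslp was at 42.3 and 319 CPM with 94.5% of the KO UMIs in 1 cell, and its direction turned (log2 -1.23) once called doublets were removed. The cell cycle inhibitor Cdkn1a, spread over more cells with 21.6% and 9.72% in the top cell, stood at 70.7 and 187 CPM, a log2 ratio of 1.40 (1.06 to 1.75). Genes measured in every genotype comparison were also checked together, without mitochondrial, Rpl, Rps, numbered Gm, Rik and rule genes. None of these differed past 2-fold, in the same direction, between KO and WT at sham, 24 h and 72 h alike.

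At 24 h of ligation 203 of 4619 measured genes were past 2-fold (4.39%), with 69 higher in KO (1.49%) and 134 lower (2.9%), but 80 higher and 69 lower in cells with 0 activation UMIs. Median-of-ratios scaling moved the median of all genes from -0.05 to 0.07 and gave 98 higher and 92 lower. Of 14 measured heat shock chaperones 5 were past 2-fold higher and none lower, with a median of 0.64. At 72 h the median of this list was -0.58, against -0.17 over all genes. Of 8 measured genes 1 was past 2-fold lower and none higher, against 5.53% and 6.71% of all measured genes. In that KO library 186 of the 218 cells held more than 0.1% leukocyte marker UMIs, and their part was not tested. At 24 h Hsp90aa1 stood at 469.5 and 1059 CPM, a log2 ratio of 1.17, which was also its ratio at sham. Hspb1, a small heat shock protein, stood at 256 and 902 CPM, a log2 ratio of 1.82 (1.58 to 2.06), with 15.5% and 16.4% in the top cell. Hspa1a reached 1313 CPM in KO against 64.8 in WT, with 75.5% of the KO UMIs in 1 cell. Of 19 endoplasmic reticulum genes 4 were past 2-fold higher (Creld2, Sdf2l1, Manf and Ddit3), and Manf, a secreted stress factor, stood at 469.5 and 1124 CPM. Hspa5, the BiP chaperone, stood at 1846 and 2824 CPM, below 2-fold. In the glycolysis and hypoxia list 3 of 19 were past 2-fold higher (Slc16a3, Tpi1 and Eno1), with a median of 0.54.

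Some of the genes lower in KO at 24 h encode secreted proteins. Wif1, a secreted Wnt inhibitor that marks a fibroblast subset, stood at 329.7 CPM in WT and 80.3 in KO, a log2 ratio of -2.04 (-2.45 to -1.64), with 27.7% and 47.1% in the top cell. It was found in 13 WT and 6 KO cells. Its companions Dkk3 and Rspo3 showed ratios of -1.72 and -1.94. At sham the order was the other way for the summed markers Wif1, Dkk3, Comp and Fmod. Together they stood at 149 CPM in WT and 425 in KO at sham, against 683 and 194 at 24 h. Of 7 measured Wnt genes 3 were past 2-fold lower in KO at 24 h and none higher. Pleiotrophin (Ptn) stood at 132 and 30.7 CPM and Myoc at 116 and 29.5. Cxcl14 stood at 1335 and 384 CPM. Of 12 measured cytokines and chemokines 1 was higher, Cxcl2 at 406 and 879.8 CPM, and 3 were lower, Cxcl5 among them at 1147 and 451. The top cell held 54.3% and 31.3% of the Cxcl2 UMIs and 38.4% and 26.7% of the Cxcl5 UMIs (WT, KO). Neutrophil markers in the class were at 425 CPM in WT and 2114 in KO; their part in the Cxcl2 value was not tested.

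At 72 h of ligation 279 of 2280 measured genes were past 2-fold (12.2%), with 153 higher in KO (6.71%) and 126 lower (5.53%). Median-of-ratios scaling moved the median from -0.17 to 0.09 and gave 195 higher and 43 lower. Of the 153 higher genes, 133 (86.9%) stood at least as high in the other kept cells of the KO library, against 36 of 118 (30.5%) at sham. Those with the largest ratios were leukocyte genes, led by Lyz2, and Il1b stood at 0 UMIs in WT and 644 CPM in KO, which is at least 66.0-fold higher against a floor of 3 UMIs. With cells limited to at most 0.1% leukocyte marker UMIs, 33 WT against 32 KO cells, 27 genes were higher and 118 lower among 1298 measured. The resident fibroblast list then had a median of 0.32, against -0.76 without the limit, and the complement list 0.32 against -0.70.

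Among the lower genes in KO at 72 h, the matrix-degrading enzyme Mmp3 stood at 293 CPM in WT and 21.2 in KO, a log2 ratio of -3.79 (-4.90 to -2.84). Its 90 WT UMIs were in 7 of the 33 cells, with 33.3% in 1 cell. The vasodilator adrenomedullin (Adm) was at 224 and 21.2 CPM, with 56.5% of the WT UMIs in 1 cell, and Tm4sf1 at 1311 and 305 CPM, with 74.2% in 1 cell. Enpp2 (autotaxin), with 17.4% and 18.5% in the top cell, stood at 224 and 57.2 CPM. None of the 7 measured cell cycle genes of the list passed 2-fold in either direction, with Birc5 at 153 and 95.3 CPM. Over all cells of the class, all 5 given markers were lower in KO than in WT at 72 h, with a sum of 14879 CPM against 25733. Of these, Pdgfra, Dcn and Lum are genes of the rule. The differences ranged from Lum, at 998.7 and 899.9 CPM, to Tcf21, at 189 and 65.6. In the 32 KO cells with at most 0.1% leukocyte marker UMIs the order was mostly the other way. There Dcn stood at 19056 CPM, Lum at 1407, Pdgfra at 529 and Gsn at 12985. The WT levels were 11910, 998.7, 400 and 12236 CPM. Tcf21 stayed lower, at 179 against 189.

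Within each library the class was set beside the activated fibroblasts, which pass the same rule except for the activation limit. It was also set beside the Pi16 adventitial fibroblasts, which hold 2 or more Pi16 UMIs and to which the activation limit was not applied. The limits on those genes split the cells, so these are descriptions, and the activated cells were also deeper. Adventitial cells had a higher median depth than the class in each library too, from 4433 UMIs at KO 72 h to 11504 at WT 24 h. Of 3060 genes measured in all 6 libraries, 48 were at least 2-fold higher in the class than in the activated cells of every library and 10 lower. Clec3b was highest by this measure, with a median log2 difference of 5.91 (4.56 to 8.32 over libraries); at WT sham it stood at 1259.6 CPM in the class and 53.3 in activated cells. Hsd11b1, which regenerates active glucocorticoid, followed at a median of 3.70, and the complement genes C1s1 and C3 at 3.63 and 3.59. C3 stood at 1418 CPM in the class and 102 in activated cells at WT 72 h, and at 1131 and 39.3 at KO 72 h. The serine protease Htra3 and the lipid transporter Abca8a were also higher in all 6. Ltbp2, Timp1 and Ccn2 were lower, with medians of -2.23, -2.12 and -1.84, and Timp1 ranged from -2.42 to -1.42 over libraries. The ratio of Timp1 between the classes thus varied less than its level, which was 374 CPM in the class at WT sham and 1457 at KO 24 h.

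Against the Pi16 adventitial cells 5 libraries had at least 20 cells in both classes. Of 1599 genes measured in all of them, 4 were at least 2-fold higher in the class in every library and 10 lower. The adventitial surface genes Cd248, Ly6c1 and Ly6a were lower, with medians of -3.05, -2.70 and -2.12, and so were Mfap5, a microfibril protein, and Igfbp6. The chemokine Cxcl5 was higher by a median of 3.48 (2.05 to 4.61), at 543 CPM in the class and 40.1 in adventitial cells at KO sham. It was found there in 20 of the 186 cells of the class, with 19.2% of its UMIs in the top cell. Apoe was higher by 1.58 (1.10 to 2.75), and Mmp3 by 1.93 (0.69 to 3.58).

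**Figure D5:**
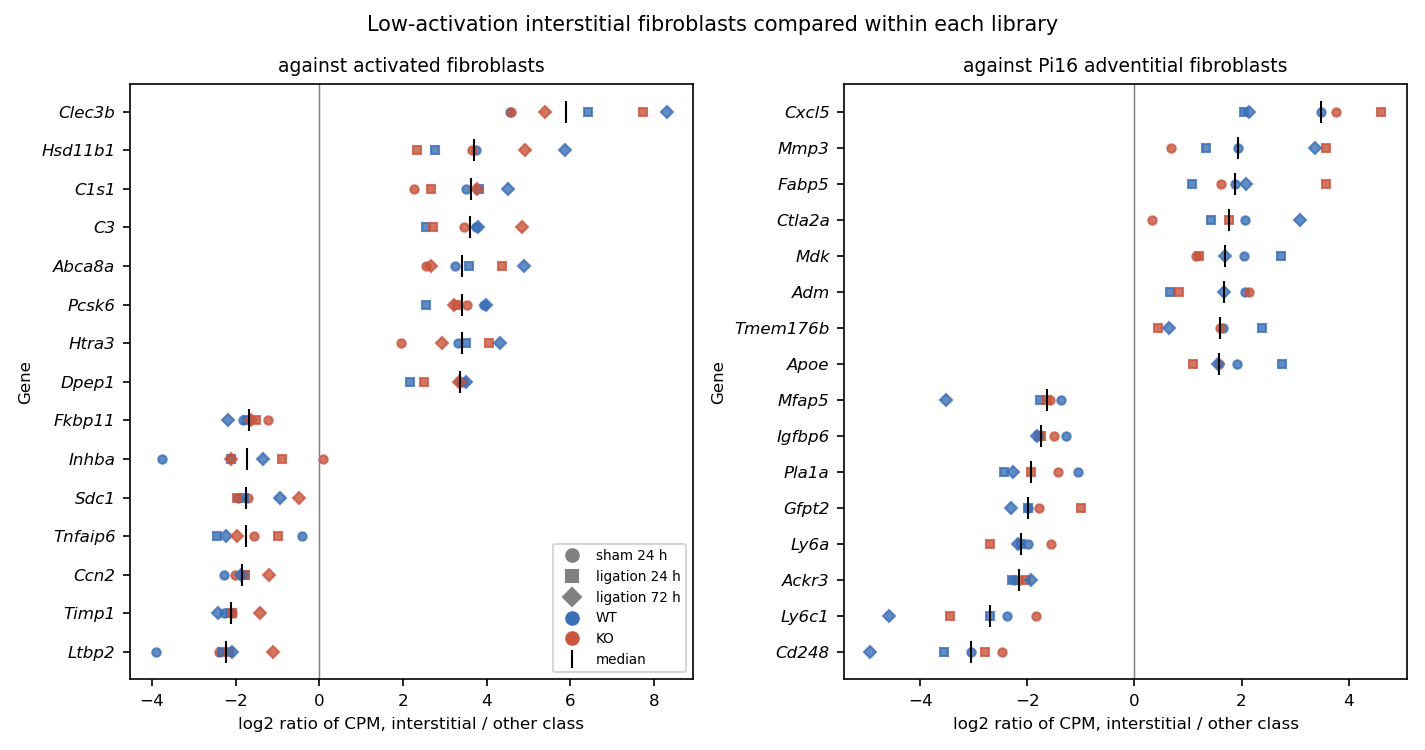
Log2 ratio of CPM between the class and the activated (left) or Pi16 adventitial fibroblasts (right) of the same library, for the genes with the highest and lowest medians; each point is 1 library, shape gives the time and treatment, colour the genotype, and black bars the median. Clec3b lies at 4.56 or above in all 6 libraries, and Cd248 at -2.48 or below in all 5.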

How the data were processed

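The deposited files hold UMI counts per gene and cell barcode for 6 libraries; they were made with Cell Ranger 6.0.0 on mm10, per the submitters' processing notes, and further steps are not given in the sources used here. The authors' counts are raw and whole, at 20995280 to 45649061 per library over 3625 to 7286 barcodes. Counts were summed over the cells of the class in each library and divided by their total (CPM). Ratios carry exact conditional 95% intervals for 2 Poisson counts, and a count of 0 was set to a floor of 3 UMIs per library. The same steps were tested on simulated counts. With 1 library per group no model was fitted. Doublets were not removed; an alternative removed the top Scrublet scores at 0.8% per 1000 cells. Thinned detection used 1000 UMIs per cell. Named genes were the 8 highest and 8 lowest ratios of each comparison (at least 100 CPM and detection in 10% of cells in the higher library, and at least 0.5 times the level of other cells), and up to 4 per list; other genes of the lists that are named were chosen after their values were seen. Some genes that the rule names are not reported here. Of the symbols in the 22 pathway lists and the marker lists, 4 were not matched. The class and the lists were chosen with earlier results of these data known. Alternatives changed the gate, the scaling, the weighting of cells and the count minimum. Software was Python 3.11.15 with numpy 2.4.6, scipy 1.17.1, pandas 2.3.3, scanpy 1.11.5 and matplotlib 3.10.9.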

Additional observations from a re-analysis of the deposited data

Results flagged for a closer look

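Comp, a matrix protein of tendon-like cells, moved in opposite directions between sham and 24 h of ligation, with a log2 ratio of 2.1 in WT and -1.75 in KO. It stood at 11.7 and 50.05 CPM in WT and at 115 and 34.2 in KO. In the WT library at 24 h 73.5% of its UMIs came from 1 cell, and with 1 library per group the difference was not tested.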

How the results depend on the processing

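The share of kept cells moved most with the gate. Gating after thinning to 1000 UMIs gave 5.48% and 5.37% at sham (WT, KO), 3.16% at WT 24 h, and 1.45% and 3.83% at 72 h. Activation genes below 0.1% of UMIs gave 1.69% at KO 24 h, and 1.11% and 3.67% at 72 h. Allowing 0 other-cell UMIs gave 2.68% at KO sham and 3.25% at KO 72 h, and a minimum of 2000 UMIs gave 2.71% there. Chosen after seeing the data, 0 activation UMIs gave 2.59% and 2.57% at sham, 1.53% and 1.01% at 24 h and 2.19% at KO 72 h, and at most 0.1% leukocyte marker UMIs gave 0.708% there. Genes past 2-fold at 24 h against sham numbered 538 in WT, but 350 with the thinned gate, 4328 with no minimum count and 264 with 0 activation UMIs. In KO they numbered 441, but 917 with the 0.1% activation limit, 3485 with no minimum and 261 with 0 activation UMIs. For 72 h against 24 h, 363 in WT became 1127 with the thinned gate, 738 with the 0.1% limit, 4632 with no minimum and 160 with 0 activation UMIs; 611 in KO became 4474 with no minimum and 377 with 0 activation UMIs. With no minimum, KO against WT gave 3163 at sham (180 otherwise), 3733 at 24 h (203) and 4454 at 72 h (279). At 72 h it gave 172 with at least 2000 UMIs, 453 as the mean over cells, 154 with 0 activation UMIs and 145 with the leukocyte limit. Genes set apart from adventitial cells in every library numbered 14, and 198 with the thinned gate, which left 2 libraries and none for activated cells.

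Directions turned as follows, and the cause was not tested. The leukocyte limit gave resident medians of 0.43 (KO, 72 h against 24 h) and 0.32 (KO against WT, 72 h), and a complement median of 0.32, which was 0.29 with the thinned gate and 0.0943 with the 0.1% activation limit. The thinned gate gave a paracrine median of 0.21 for KO against WT at 72 h; 0 activation UMIs gave 0.17 for WT and, for contractile genes, -0.0389 for KO at 72 h against 24 h. The thinned gate also turned Tslp (0.38 for KO 24 h against sham, -0.92 for KO against WT sham, and -1.23 with doublets removed), Ptx3 (-0.63 for KO against WT at 24 h) and Hp (-2.38 at 72 h, and -0.31 with the 0.1% limit). No paired analysis was possible because each group is 1 library and the labels give no replicate numbers. The KO library at 72 h had the lowest median depth of the class, 1639 UMIs per cell, and the WT library at 72 h the fewest cells, 33.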

Other observations

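Paracrine growth factors had 4 of 10 measured genes past 2-fold lower and 1 higher in WT at 72 h against 24 h (median -0.78), and 6 of 11 lower and 1 higher in KO (median -1.03). The WT median was 0.17 in cells with 0 activation UMIs. In these comparisons 8.11% of all measured genes were lower and 3.04% higher in WT, and 11.1% and 4.95% in KO. Of 16 measured interferon-induced genes, 3 were past 2-fold higher and 1 lower in WT at 24 h against sham, with a median of 0.05. Over all measured genes 5.68% were higher and 3.66% lower. The 3 were Ifit1, Ifit3 and Isg15, and single cells held 64.7%, 82.1% and 54.4% of their UMIs at WT 24 h. The lower gene was Ifi27l2a, whose level went from 1316 to 602 CPM. In the KO libraries Ifi27l2a went from 936 to 369.6. At 72 h it was at 1845 (WT) and 1097 (KO). At 72 h against 24 h its log2 ratios were 1.62 and 1.57. Of 18 measured genes of the TGF-beta pathway, 2 were higher at 24 h in WT, Ccn1 and Ccn2, with Ccn2 at 71.4 and 411 CPM, and none in KO, where Ccn2 stood at 128 and 205. Tgfbr2, the type II receptor, stood at 223 and 237 CPM at sham, 199 and 196 at 24 h, and 97.6 and 78.35 at 72 h. Angptl4, an inhibitor of lipoprotein lipase, stood at 77.3 and 57.1 CPM at sham, 456 and 197 at 24 h, and 250.5 and 88.9 at 72 h. Of 9 measured complement genes 2 were lower and 1 higher at 24 h in WT, and 1 lower in KO. The shares over all measured genes were 5.68% higher and 3.66% lower in WT, and 3.02% and 4.14% in KO. Beside these shares the TGF-beta and complement counts of 1 or 2 genes are descriptions.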
